A study of Mus musculus with 12 samples.

Results

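The inflammatory and NF-kB genes are 39 genes chosen by name: cytokines, chemokines, NF-kB subunits, their inhibitors, typical targets, receptors, adaptors and the inflammasome. All 39 were found among the 25078 genes of the count table, and 38 of them had enough counts to be tested. Cxcl1, a chemokine that attracts neutrophils, was the exception, at 0 to 0.162 CPM, counts scaled to library size. The genes were measured in LSK cells, the lineage-negative, Sca1-positive, c-Kit-positive bone marrow fraction that holds mouse blood stem cells and early progenitors.

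The study has 4 groups of 3 libraries each. CM cells came from mice at the preleukemic stage that carry Cbfb-MYH11, the fusion that marks inv(16) leukemia in people, and WT cells came from mice labelled wild type by genotype and control by title. The library names mark the CM animals as CHW, WT animals 1 and 3 as C and WT animal 2 as WT; the meaning of C and CHW is not stated. After sorting, a share of each animal's cells received 3.5 Gy (IR), the rest were incubated without radiation (NIR), and RNA was taken 24 h later, so each of the 6 animals gave 1 IR and 1 NIR library. The labels give no age for the mice and do not say how the fusion was switched on. The cells of every group, NIR included, spent the incubation outside the animal.

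NF-kB is a family of dimeric transcription factors made from RELA, REL, RELB and the products of Nfkb1 and Nfkb2. In resting cells IkB proteins hold the dimers in the cytoplasm. Signals from TNF, IL-1 and Toll-like receptors lead to IkB degradation, and the freed dimers enter the nucleus and bind kappaB sites in the promoters of cytokine, chemokine and inhibitor genes, several of which encode the next round of signals or the brakes on the pathway. In blood stem and progenitor cells inflammatory cytokines are known to drive cell division and myeloid output.

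The 10-base kappaB consensus was searched on both strands in the 250 bases before each start site, in RefSeq promoters of build GRCm38.p6. At least 1 match lay in 14 of the 31 members with a promoter in the table, or 45.2%, against 2225 of 27025 genes with a promoter, or 8.23%. The other 17 members, Tnf, Il1b, Ccl3, Icam1, Traf1 and Birc3 among them, had 0 matches in this window. The 14 were Ccl9, Cxcl1, Cxcl10, Cxcl2, Il1r1, Il6, Nfkb2, Nfkbia, Nfkbie, Nlrp3, Rel, Tlr2, Tnfaip3 and Tnip1. A match is a description of the letters and not a measurement of binding. The stretches of 5 genes with a match whose levels are described in detail are shown 5′ to 3′ along the strand of the gene, with 40 flanking bases where the window allows and matches in capitals, overlapping matches merged. Cxcl2 lies at chr5:90903762-90903852, plus strand; Cxcl10 at chr5:92348943-92349088, minus strand; Nfkbie at chr17:45555554-45555643, plus strand; Rel at chr11:23771011-23771101, minus strand; and Ccl9 at chr11:83578637-83578711, minus strand.
Cxcl2: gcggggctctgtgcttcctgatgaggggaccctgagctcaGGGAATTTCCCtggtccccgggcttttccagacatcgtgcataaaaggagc
Cxcl10: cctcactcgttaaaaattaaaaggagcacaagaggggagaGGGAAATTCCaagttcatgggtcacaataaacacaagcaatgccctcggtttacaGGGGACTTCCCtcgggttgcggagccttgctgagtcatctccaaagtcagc
Nfkbie: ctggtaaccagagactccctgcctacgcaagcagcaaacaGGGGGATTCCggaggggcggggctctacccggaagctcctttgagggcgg
Rel: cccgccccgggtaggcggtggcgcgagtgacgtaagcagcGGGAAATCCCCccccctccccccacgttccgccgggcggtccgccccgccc
Ccl9: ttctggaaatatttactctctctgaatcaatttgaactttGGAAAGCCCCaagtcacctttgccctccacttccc

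Total gene counts were 68.5 to 110.8 M per library. As a check of the treatment, the p53 target Trp53inp1 rose after IR in both genotypes. Its log2 fold change was 1.39 in CM (edgeR adjusted p = 0.00421) and 2.10 in WT (edgeR adjusted p = 8.7e-05). It had the smallest p of the p53 targets checked in each genotype. In CM no other target checked had an edgeR adjusted p under 0.05. In WT, Mdm2, Ccng1, Zmat3 and Phlda3 did as well. LSK markers such as Kit, Ly6a and Cd34 were found in every library. The 8 LSK markers summed to 825, 1245 and 1050 CPM in CM IR animals 1, 2 and 3, and to 772, 1263 and 920 in CM NIR. In WT they summed to 886, 1190 and 1067 CPM in IR, and to 699, 1089 and 1055 in NIR. The fit used edgeR's quasi-likelihood test on the counts of all 14599 genes with enough reads, and p-values were adjusted over those genes with a threshold of 0.05. Levels of 1 gene across libraries are in CPM scaled to the effective library size, and levels between genes are in RPKM, which accounts for gene length.

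By RPKM, the members with the highest mean over the 12 libraries were 3 CC chemokines: Ccl2 with 118, Ccl6 with 100.2 and Ccl9 with 97.9 RPKM. Nfkb1, which encodes the p105 precursor of the p50 subunit, followed with 64.7 RPKM and Myd88, the adaptor of Toll-like and IL-1 receptors, with 62.2 RPKM. The cytokines lay lower, between 1.14 RPKM for Il1a and 7.65 RPKM for Il1b. The roles differed in how far their levels spread over the libraries. The highest library had a median of 14.0 times the CPM of the lowest for the 6 cytokine genes, the IL-1 antagonist Il1rn among them, and 12.9 times for the 8 tested chemokines. For the 5 NF-kB subunits that median was 1.81 times, and for the 7 IkB and feedback genes 2.38 times. Nfkb1 varied 1.42-fold, with 250, 300 and 260 CPM in CM IR, 240, 315 and 222 in CM NIR, 304, 265 and 286 in WT IR, and 263, 259 and 273 in WT NIR. Of the 38 tested members, 7 varied less than 2-fold and 10 more than 10-fold; the widest range was that of Cxcl10, at 318-fold.

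**Figure D1:**
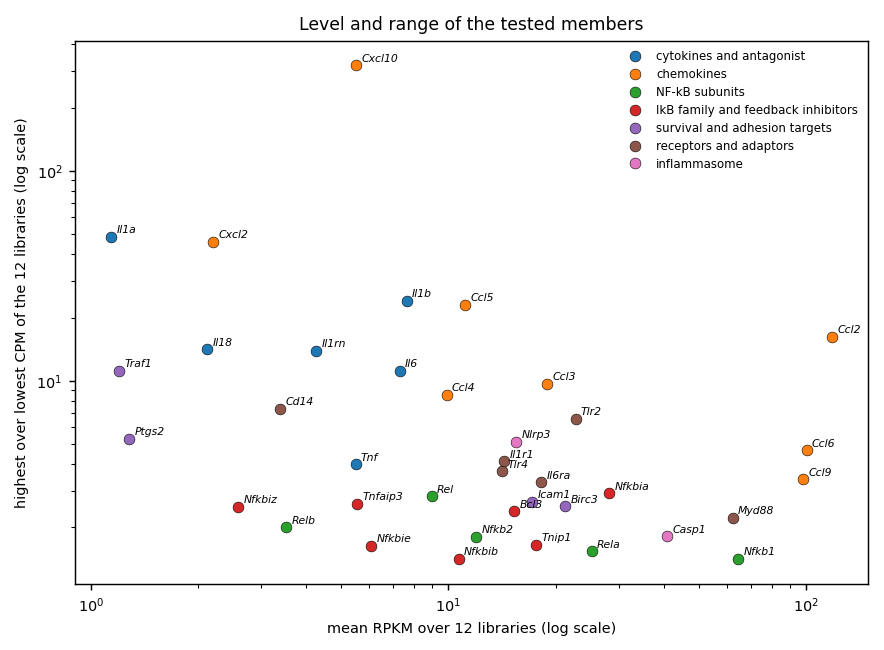
Each point is 1 of the 38 tested members, with its mean RPKM over the 12 libraries on the horizontal log axis, the ratio of its highest to its lowest CPM on the vertical log axis, and its role as the colour. Cytokines and chemokines lie high, up to 318-fold for Cxcl10, and the NF-kB subunits lie low, down to 1.42-fold for Nfkb1, at levels from 1.14 to 118 RPKM.

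Most members shared 1 pattern across the libraries, which bears on every comparison of groups. Of the 38 members, 24 had their highest CPM in CM IR animal 1, where 13.9% of all genes had theirs. The lowest CPM fell in CM NIR animal 2 for 12 members, in WT NIR animal 2 for 8 and in WT NIR animal 3 for 6, against 13%, 8.6% and 8.27% of all genes. CM animal 1 was above CM animal 2 for 34 members in IR and for 33 in NIR, against 48.1% and 47.8% of all genes. Without irradiation, CM animals 1 and 3 were both above every WT library for 20 of 38 members, against 24.3% of all genes. CM animal 2 was below every WT library for 15 of 38 members, against 30.2% of all genes, a share near that of the members. Within the WT NIR group, animal 1 was the highest for 33 members, against 45.1% of all genes.

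Markers of monocytes and macrophages followed the same order of libraries. The lineage-negative sort is meant to remove mature cells. Markers of B cells had summed levels of 15 to 19.2 CPM in CM libraries and 13.6 to 17 CPM in WT libraries. The 10 monocyte and macrophage markers (Csf1r, Adgre1, C1qa and others, none a member and none at 0 in any library) summed to 2506, 512 and 1467 CPM in CM IR animals 1, 2 and 3, and to 2181, 365 and 2302 CPM in CM NIR. They summed to 1037, 755 and 675 CPM in WT IR, and to 1471, 642 and 594 CPM in WT NIR. The 6 markers of mast cells and basophils gave 1397, 272 and 904 CPM in CM IR, 1216, 208 and 1645 in CM NIR, 403, 199 and 262 in WT IR, and 569, 167 and 208 in WT NIR. The 10 mature neutrophil markers gave 174 to 744 CPM in CM IR, 143 to 1562 in CM NIR, 199 to 372 in WT IR and 222 to 448 in WT NIR, lowest of CM in animal 2. The T and NK cell markers gave 289, 87.2 and 208 CPM in CM IR, 212, 56 and 240 in CM NIR, 100.2, 69.1 and 69 in WT IR, and 165, 50.2 and 58.6 in WT NIR, again in a like order. The 2 eosinophil markers ran the other way, with 1.56 to 26.4 CPM over the CM libraries and 82 to 173 CPM over the WT libraries. The LSK marker sums, given above, were lowest in animal 1 and highest in animal 2 of each group. In these bulk samples a change in the number of such cells and a change in RNA per cell cannot be told apart, and the part of these markers in the members' levels was not tested.

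**Figure D2:**
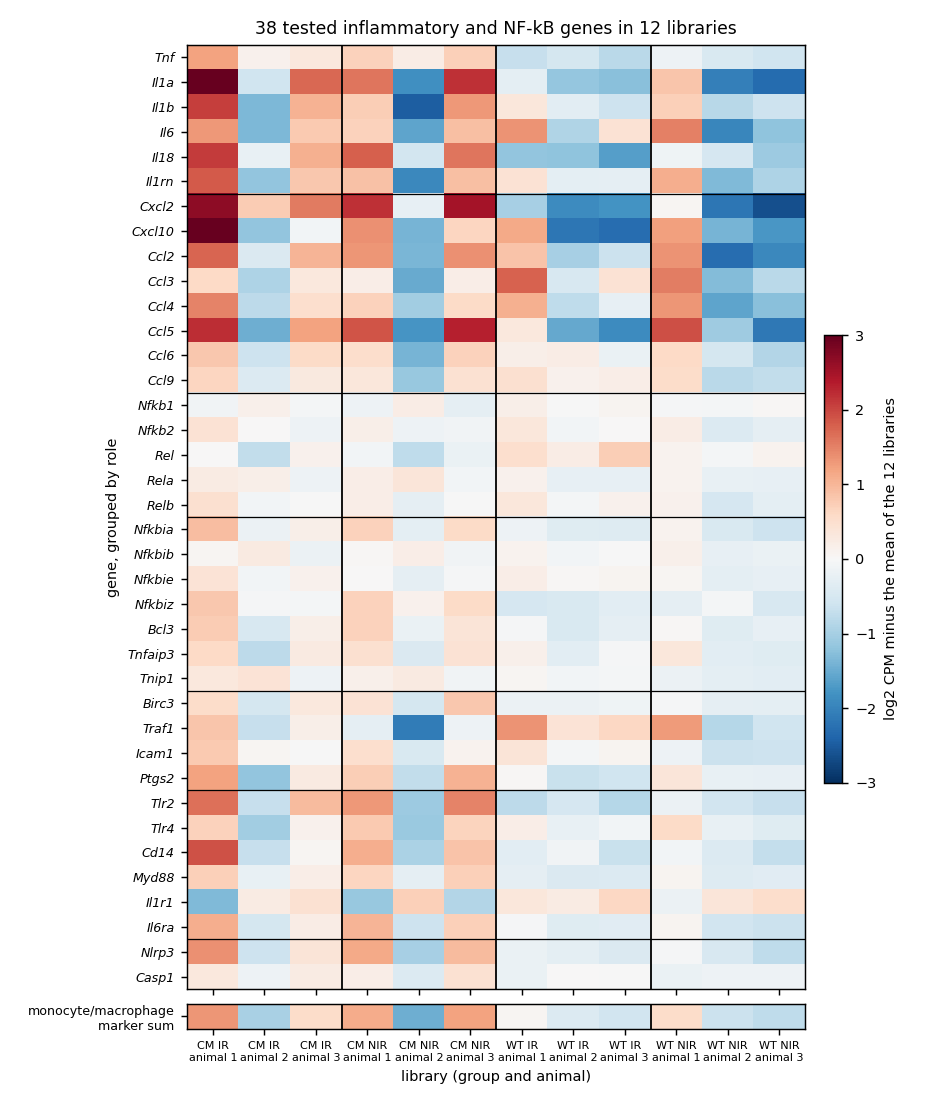
Rows are the 38 tested members grouped by role, columns the 12 libraries, and colour gives log2 CPM minus the mean of the 12 libraries; the bottom row gives the summed monocyte and macrophage markers on the same scale. CM animal 1, with 24 of the 38 highest values in its IR library, and CM NIR animal 3 are mostly red, CM animal 2 is mostly blue, and the marker row shows the same order.

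The comparison of CM with WT asks how the fusion gene changes the levels of these genes before leukemia. In the irradiated cells 0 of 38 members passed the test, where 0.664% of all genes did; 9 of 38 had an unadjusted p under 0.05, against 11.8% of all genes. In the unirradiated cells 0 of 38 passed, where 1.62% of all genes did, and 7 of 38 had an unadjusted p under 0.05, against 15.1% of all genes. The fitted log2 fold change was positive for 32 members (84.2%) in IR and for 33 (86.8%) in NIR, against 52.9% and 52.6% of all genes. Most members shared 1 pattern over the libraries, so these are not separate observations. The median log2 fold change over the members was 0.39 in IR and 0.45 in NIR, and over all genes 0.02 in both. In DESeq2, Tnf, Cxcl2 and Il18 passed in IR, where 4.47% of genes did, and Tnf and Cxcl2 passed in NIR, where 6.32% did; limma-voom called 0 members, where it called 1.07% of genes in IR and 1.49% in NIR. Those 3 genes encode ligands, but so do other members, such as Il6 and Ccl4, that DESeq2 called in neither treatment.

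Tnf (chr17:35199367-35202007 in mm10, minus strand) encodes the cytokine TNF, a main activator of NF-kB and a product of it. It had 19.3, 9.13 and 10.4 CPM in the 3 CM IR libraries, against 5.18, 5.80 and 4.81 CPM in WT IR. In NIR it had 13.5, 9.75 and 13.7 CPM in CM, against 7.54, 6.11 and 5.52 CPM in WT. Every CM library lay above every WT library at the same treatment, including both libraries of CM animal 2. The log2 fold change was 1.30 ± 0.27 (SE) in IR, with an edgeR adjusted p of 0.0654, and 0.95 ± 0.27 in NIR, with an edgeR adjusted p of 0.126. When the IR library of CM animal 3 was left out, the IR difference passed with an edgeR adjusted p of 0.0469, and 1.86% of all genes passed. That was 1 of 6 fits that each left out 1 IR library, over which the edgeR adjusted p reached 0.300. The others did not pass.

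Cxcl2 (chr5:90903899-90905938, plus strand), a chemokine that draws neutrophils through the receptor CXCR2, had the largest NIR difference. Its levels were 7.66, 1.98 and 3.48 CPM in CM IR, against 0.575, 0.297 and 0.317 CPM in WT IR. Without radiation they were 5.37, 0.978 and 6.68 CPM in CM, against 1.21, 0.239 and 0.167 CPM in WT. The IR groups did not overlap; in NIR, CM animal 2 was under WT animal 1. It differed by a log2 fold change of 3.46 ± 0.92 in IR and 3.02 ± 0.90 in NIR, with edgeR adjusted p-values of 0.127 and 0.135. With CM NIR animal 2 left out, the NIR difference passed with an edgeR adjusted p of 0.0390, where 6.29% of all genes did, and Il18 passed too. For Cxcl2 that was 1 of 6 fits that each left out 1 NIR library, over which the edgeR adjusted p reached 0.396. The others did not pass. Cxcl2 and Cxcl1 are close relatives and their reads may be shared in part.

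Il18 (chr9:50554700-50581841, plus strand) encodes a cytokine of the IL-1 family that caspase-1 matures. In CM IR it had 8.2, 1.62 and 3.96 CPM, against 0.810, 0.807 and 0.581 CPM in WT IR, and these groups did not overlap. In NIR it had 6.57, 1.27 and 5.76 CPM in CM, against 1.72, 1.32 and 0.871 CPM in WT, where CM animal 2 lay among the WT libraries. The log2 fold change was 2.65 ± 0.67 in IR (edgeR adjusted p = 0.114) and 1.80 ± 0.65 in NIR (edgeR adjusted p = 0.216). Il18 overlaps Bco2 and Tex12 on the other strand, and whether the counting used strand is not stated. Casp1, whose product matures IL-18, had a log2 fold change of 0.21 ± 0.19 in IR and 0.30 ± 0.19 in NIR.

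**Figure D3:**
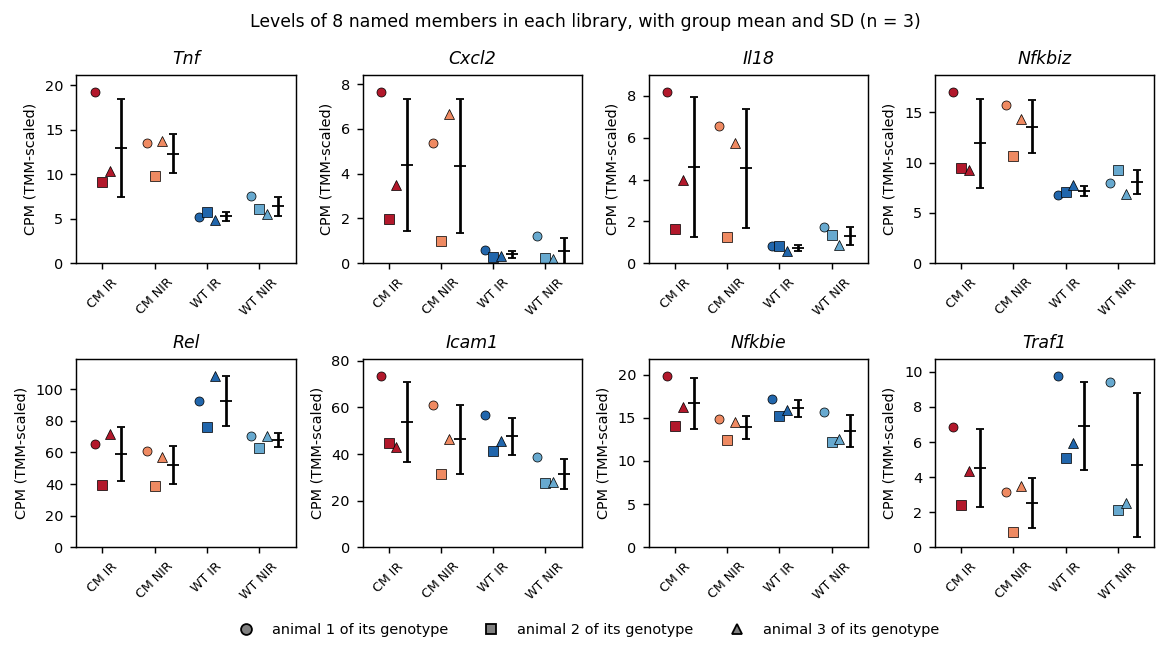
CPM of 8 members in each library, 1 panel per gene; the groups run CM IR, CM NIR, WT IR and WT NIR, the symbol gives the animal of that genotype, and the bar gives the group mean and SD (n = 3). Tnf and Nfkbiz lie higher in every CM library than in every WT library at the same treatment, and Rel lies lower; Cxcl2 and Il18 are highest in CM animals 1 and 3.

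The other cytokines spread widely within the CM group. Il1a, an IL-1 receptor ligand, had 9.91, 0.728 and 3.71 CPM in CM IR, against 0.904, 0.478 and 0.449 CPM in WT IR, for a log2 fold change of 2.97 ± 1.21 (edgeR adjusted p = 0.351). Il1b had 32.1, 2.98 and 15.7 CPM in CM IR, against 9.64, 6.04 and 4.91 CPM in WT IR. CM animal 2 was thus under all 3 WT animals for Il1b. Il6, which acts on progenitors through gp130, had a log2 fold change of 0.06 ± 0.99 in IR, with a 95% interval of -2.14 to 2.26, and of 0.11 ± 1.0 in NIR. Il1rn, the antagonist that blocks the IL-1 receptor, had 0.96 ± 0.88 in IR and 0.38 ± 0.88 in NIR. The wide intervals of these 4 genes come with a spread of 11.2-fold or more over the libraries.

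Among the chemokines, those with the highest RPKM did not separate CM from WT. Ccl2, which recruits monocytes through CCR2, had 221, 48.6 and 134 CPM in CM IR, against 120, 33.4 and 42.3 CPM in WT IR, and 166, 25.8 and 172 CPM in CM NIR, against 169, 13.7 and 17.2 CPM in WT NIR. Animal 2 was the lowest in each of the 4 groups for Ccl2, and animal 1 of WT was several times the other WT animals. Ccl6 had 232, 86.2 and 196 CPM in CM IR, against 149, 153 and 115 CPM in WT IR, and 191, 49.8 and 214 CPM in CM NIR, against 201, 92.2 and 71.6 CPM in WT NIR. Ccl9 had 432, 211 and 338 CPM in CM IR, against 387, 302 and 320 CPM in WT IR, and 350, 127 and 385 CPM in CM NIR, against 408, 159 and 167 CPM in WT NIR. Both are CC chemokines that act through CCR1, and for both CM animal 2 was under every WT library of its treatment. Their log2 fold changes lay between -0.04 and 0.32, each with an SE of 0.46 or more.

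Ccl3, another CCR1 ligand, was fitted lower in CM, with a log2 fold change of -0.74 ± 0.82 in IR and -0.55 ± 0.82 in NIR. It had 18, 6.28 and 14.7 CPM in CM IR, against 40.6, 8.47 and 16.2 CPM in WT IR, and 13.6, 4.19 and 13.6 CPM in CM NIR, against 34.4, 4.79 and 6.78 CPM in WT NIR. WT animal 1 held the highest values. Ccl4, its neighbour and close relative, had a log2 fold change of 0.44 ± 0.86 in IR and 0.14 ± 0.86 in NIR. Ccl5, a chemokine that attracts T cells, had 1.98 ± 1.29 in IR and 1.01 ± 1.26 in NIR.

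Cxcl10, a CXCR3 ligand that interferon induces along with NF-kB, rested on 1 library. It had 61.5, 0.446 and 0.969 CPM in CM IR, 2.71, 0.381 and 1.62 CPM in CM NIR, 2.32, 0.212 and 0.194 CPM in WT IR, and 2.45, 0.380 and 0.295 CPM in WT NIR. The value of 61.5 CPM, in CM IR animal 1, stands beside 11 values between 0.194 and 2.71 CPM. The fitted log2 fold change of CM over WT in IR was 4.54 ± 1.88 (edgeR adjusted p = 0.359). Its IR over NIR value in CM was 3.74 ± 1.80, and it was -1.15 without that library.

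Among the NF-kB subunits, Rel was the one whose genotypes did not overlap. Rel (chr11:23736850-23770969, minus strand) encodes c-Rel, the subunit best known from lymphocytes. It had 65.5, 39.3 and 71.7 CPM in CM IR, against 92.8, 76.4 and 109 CPM in WT IR. In NIR it had 61.2, 38.6 and 57.2 CPM in CM, against 70.3, 63.1 and 70.4 CPM in WT. Every CM library was under every WT library at the same treatment, opposite in direction to Tnf. The log2 fold change was -0.65 ± 0.23 in IR (edgeR adjusted p = 0.267) and -0.38 ± 0.23 in NIR (edgeR adjusted p = 0.489). Rela, the main activating subunit, had log2 fold changes of 0.21 ± 0.16 in IR and 0.28 ± 0.16 in NIR. Those of Nfkb1, Nfkb2 and Relb lay between -0.08 and 0.19, with SEs of 0.13 to 0.22.

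Of the IkB family, Nfkbiz (chr16:55811377-55838641, minus strand) was the one whose genotypes did not overlap in either treatment. Of all genes, 4.84% were higher in CM in this way, and Nfkbiz passed the edgeR test in neither treatment. It encodes IkB-zeta, a nuclear IkB that works with p50 at secondary response genes. Its levels were 17.1, 9.45 and 9.23 CPM in CM IR, against 6.81, 7.06 and 7.76 CPM in WT IR, and 15.7, 10.6 and 14.4 CPM in CM NIR, against 7.97, 9.27 and 6.89 CPM in WT NIR. All CM libraries were above all WT libraries of the same treatment, CM animal 2 included. The log2 fold change was 0.72 ± 0.25 in IR (edgeR adjusted p = 0.244) and 0.75 ± 0.25 in NIR (edgeR adjusted p = 0.176). Nfkbia, the IkB-alpha of the fast feedback loop, had 80.4, 37.6 and 47.8 CPM in CM IR, against 38.4, 33.0 and 32.9 CPM in WT IR, for a log2 fold change of 0.67 ± 0.32. In that gene CM animal 2 was just under the highest WT library. Bcl3, another nuclear IkB, had 0.48 ± 0.30 in IR and 0.53 ± 0.30 in NIR, and Tnfaip3, the A20 deubiquitinase, 0.19 ± 0.35 in IR and 0.30 ± 0.35 in NIR. Nfkbib and Nfkbie had log2 fold changes of 0.05 to 0.13. Tnip1, which binds A20, had 59.8, 64.3 and 50.2 CPM in CM NIR, against 47.3, 43.7 and 43.3 CPM in WT NIR, and those groups did not overlap; the log2 fold change was 0.38 ± 0.14 (edgeR adjusted p = 0.242).

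Among the receptors and adaptors, Tlr2 is the receptor for bacterial lipoproteins. It had 160, 31.9 and 98.3 CPM in CM IR, against 29.7, 36 and 28.2 CPM in WT IR. CM animals 1 and 3 were above every WT library and CM animal 2 lay among them. Its log2 fold change was 1.63 ± 0.63 in IR (edgeR adjusted p = 0.319) and 1.40 ± 0.63 in NIR (edgeR adjusted p = 0.326). Myd88 had 192, 99.2 and 133 CPM in CM IR, against 96.9, 86.6 and 87.0 CPM in WT IR, without overlap, for a log2 fold change of 0.65 ± 0.28. The other receptors were Tlr4 with 0.11 ± 0.51 in IR, its co-receptor Cd14 with 1.21 ± 0.65 and Il6ra with 0.65 ± 0.45. Il1r1, the signalling IL-1 receptor, had 26.5, 79.3 and 90.8 CPM in CM IR, against 83.6, 78.5 and 103 CPM in WT IR. Its lowest value was in CM IR animal 1, where 24 other members were highest, and CM animals 2 and 3 lay within the WT range. In NIR it had 30.4, 110 and 35.9 CPM in CM, against 59.0, 84.9 and 95.7 CPM in WT, with CM animal 2 the highest. Nlrp3, the inflammasome sensor, had 0.89 ± 0.54 in IR and 1.02 ± 0.54 in NIR. Of the targets, Birc3, an inhibitor of cell death, had 0.34 ± 0.32 in IR and Ptgs2, the cyclooxygenase COX-2, 0.77 ± 0.57, while Traf1 was fitted lower in CM, at -0.61 ± 0.66.

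**Figure D4:**
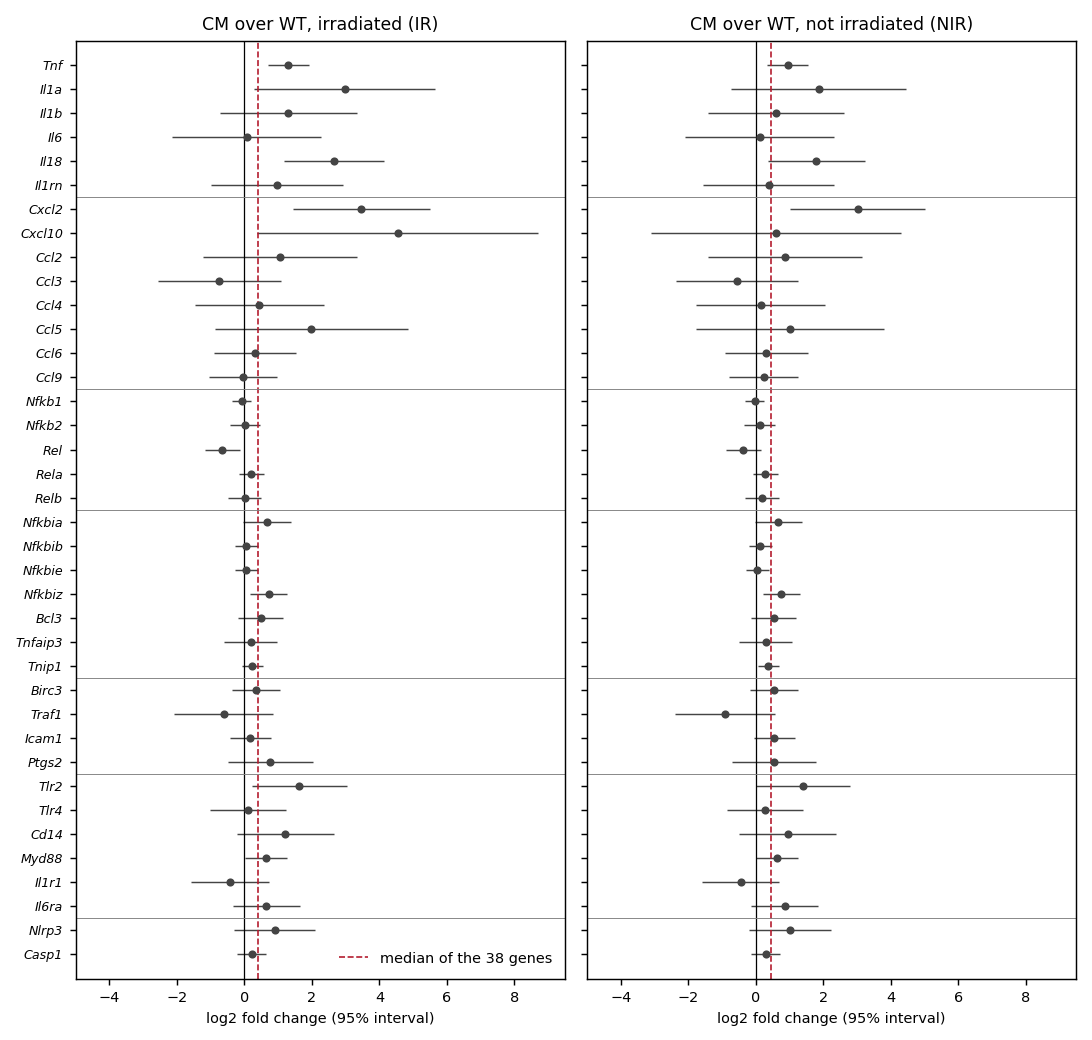
Log2 fold change of CM over WT for each of the 38 tested members, after irradiation on the left and without it on the right; points are edgeR fits, lines their 95% intervals, and the dashed line the median of the members (0.39 in IR, 0.45 in NIR). Of the 38 points, 32 lie above 0 in IR and 33 in NIR, against 52.9% and 52.6% of all genes. The intervals of cytokines and chemokines are wide, and Rel lies under 0 in both panels.

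Counted by whether the 3 libraries of each genotype overlapped, 5 members were higher in every CM IR library (Tnf, Il18, Cxcl2, Nfkbiz and Myd88), of 38, against 9.23% of all genes. In NIR 3 of 38 (Tnf, Nfkbiz and Tnip1) were higher in every CM library, against 8.14% of all genes. Rel was lower in every CM library in each treatment, 1 of 38, against 8.36% of all genes in IR and 7.84% in NIR. Tnf and Nfkbiz were higher without overlap in both treatments, 2 of 38, where 4.84% of all genes were, and Rel lower in both, 1 of 38, where 3.97% were. As shares of the 38 members these counts are 13.2% for the 5, 7.89% for the 3 and 2.63% for the 1, near or under the shares of all genes, apart from the 13.2% in IR.

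The number of members called for CM over WT depended on CM animal 2. When both of its libraries were left out, an alternative added after the data were seen, 7 members passed in IR, where 6.87% of all genes did, and 12 passed in NIR, where 17.2% did. In IR these were Birc3, Cxcl2, Il18, Myd88, Nlrp3, Tlr2 and Tnf. In NIR they were the same 7 with Bcl3, Casp1, Il6ra, Nfkbia and Nfkbiz. Each of them was higher in CM. With 2 CM animals left, these calls describe animals 1 and 3, in which the summed macrophage markers without radiation were 2181 and 2302 CPM, against 594 to 1471 CPM in WT. Most members were lower in CM animal 2 than in CM animal 1, so leaving out animal 2 raises their CM level by construction. The calls are therefore no separate support for a difference. Without both libraries of CM animal 1, CM animal 3 or WT animal 1 instead, 0 members passed in either treatment.

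By their library numbers in the labels the animals form 2 series, and the difference was also taken within each. In series A (CM animals 1 and 2, WT animal 1), the median log2 ratio of the members, CM over WT, was 0.29 in IR and -0.07 in NIR. In series B (CM animal 3, WT animals 2 and 3), it was 0.51 in IR and 1.17 in NIR. For NIR the members' median thus held its sign in series B and not in series A, where 18 of 38 members were higher in CM. Tnf was higher in CM in both series, with 1.46 and 0.97 in IR and 0.62 and 1.23 in NIR, series A before B. Cxcl2 was likewise higher by its means, with 3.07 and 3.50 in IR and 1.39 and 5.04 in NIR. In series A NIR, however, Cxcl2 was lower in CM animal 2 than in WT animal 1. Rel was lower in CM in both, with -0.83 and -0.37 in IR and -0.49 and -0.22 in NIR. Each series holds 1 animal of a genotype, so no test was made within it.

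The comparison of IR with NIR asks how radiation changes these genes a day later. In CM 0 of 38 members passed, where 0.00685% of all genes did, and in WT 0 of 38 passed, where 0.116% did. At an unadjusted p under 0.05 the count was again 0 in both genotypes, against 1.62% of all genes in CM and 4.05% in WT. With the animal as a block, which pairs the IR and NIR libraries, 0 members passed in either genotype, while the share of all genes passing was 0 in CM and 1.12% in WT. DESeq2 also called 0 members, with 0.123% of genes called in CM and 0.959% in WT, and so did limma-voom, with 0.00685% in CM and 0.212% in WT. The median log2 fold change of the members was 0.08 in CM and 0.03 in WT, and over all genes it was 0.00 in CM and -0.01 in WT.

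Within an animal, most members lay on the same side of 0, and the side differed between animals. IR was above NIR for 36 of 38 members in CM animal 1, for 29 in CM animal 2 and for 6 in CM animal 3. In WT animals 1, 2 and 3 it was above NIR for 12, 27 and 30 members. Of all genes, 48.0% to 52.8% were higher in IR in each animal. The median log2 difference of the members was 0.29, 0.20 and -0.21 in CM animals 1, 2 and 3, and -0.16, 0.19 and 0.28 in WT animals 1, 2 and 3. The log2 ratio of the summed monocyte and macrophage markers was 0.20, 0.49 and -0.65 in the CM animals and -0.50, 0.23 and 0.18 in the WT animals, with the sign of the members' median in each of the 6. The mast cell and basophil markers had that sign in each of the 6 as well, with 0.20, 0.39 and -0.86 in the CM animals and -0.50, 0.25 and 0.33 in the WT animals. The neutrophil markers had it in 5, with 0.05, 0.29 and -1.15 in CM and -0.94, 0.25 and -0.15 in WT. The T and NK cell markers had it in each animal. The LSK markers did not, with 0.10, -0.02 and 0.19 in CM and 0.34, 0.13 and 0.02 in WT. The summed dendritic and eosinophil markers were higher in IR in every animal, and the B cell markers in all but CM animal 3. The erythroid markers were lower in every animal. The part of these lists in the members' differences was not tested.

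**Figure D5:**
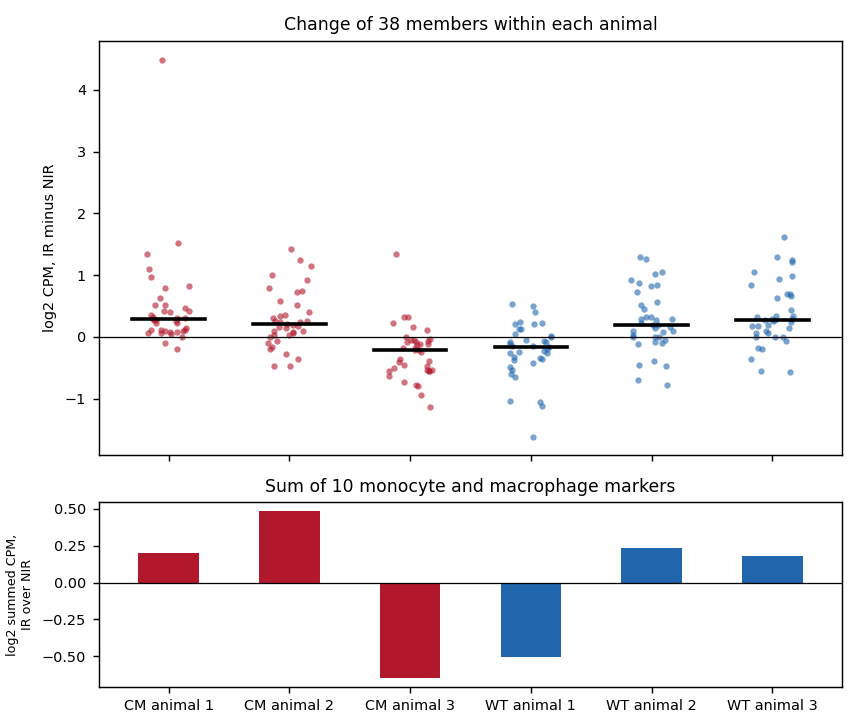
Upper panel: log2 CPM in IR minus NIR within each animal, 1 point per member (38 per animal), with the median as a line. Lower panel: log2 ratio of the summed monocyte and macrophage markers in the same animals; both are positive in CM animals 1 and 2 and WT animals 2 and 3, and negative in CM animal 3 (-0.21 and -0.65) and WT animal 1 (-0.16 and -0.50).

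Of the 38 members, 4 were higher in IR than in NIR in all 6 animals, where 5.93% of all genes were: Rel, Nfkbie, Traf1 and Ccl3. None of the 4 passed the test. The number that was lower in all 6 animals was 0, where 6.58% of all genes were.

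Rel had a log2 difference, IR minus NIR, of 0.10, 0.03 and 0.33 in CM animals 1, 2 and 3, and of 0.40, 0.28 and 0.62 in WT animals. Every WT IR library was above every WT NIR library. The fitted IR over NIR value was 0.17 ± 0.23 in CM (-0.0091 without CM NIR animal 2) and 0.45 ± 0.23 in WT; in WT the unadjusted p was 0.0842 and the edgeR adjusted p was 1, or 0.0787 with the animal block. Nfkbie (chr17:45555700-45563168, plus strand) encodes IkB-epsilon, an inhibitor that NF-kB itself induces. Its CPM were 19.9, 14.0 and 16.2 in CM IR, against 14.9, 12.4 and 14.5 in CM NIR, and 17.2, 15.2 and 15.9 in WT IR, against 15.6, 12.2 and 12.6 in WT NIR. The IR and NIR ranges overlapped in both genotypes, and the fitted values were 0.26 ± 0.16 in CM and 0.26 ± 0.16 in WT.

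Traf1, a TNF receptor adaptor and NF-kB target, had 6.85, 2.38 and 4.37 CPM in CM IR, against 3.17, 0.876 and 3.47 in CM NIR, and 9.78, 5.09 and 5.93 in WT IR, against 9.43, 2.12 and 2.54 in WT NIR. Its log2 difference within animals ran from 0.05 in WT animal 1 up to 1.42 in CM animal 2. The fitted value was 0.86 ± 0.67 in CM and 0.56 ± 0.66 in WT. For Ccl3 the log2 difference was 0.41, 0.58 and 0.12 in the CM animals and 0.24, 0.82 and 1.25 in the WT animals. The fitted value was 0.32 ± 0.81 in CM and 0.51 ± 0.81 in WT, and leaving out 1 library turned its sign in both, to -0.062 in CM without CM NIR animal 2 and to -0.31 in WT without WT IR animal 1.

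Icam1 (chr9:21015940-21028814, plus strand), an adhesion molecule and NF-kB target that leukocytes bind through integrins, had the smallest p among the members for IR in WT. It had 56.6, 41.2 and 45.4 CPM in WT IR, against 38.9, 27.7 and 28.0 CPM in WT NIR, without overlap. In CM it had 73.6, 44.7 and 42.9 CPM in IR, against 61.1, 31.2 and 46.6 CPM in NIR, with overlap. The log2 fold change was 0.60 ± 0.28 in WT (unadjusted p = 0.0555, edgeR adjusted p = 1, and 0.0724 with the animal block) and 0.21 ± 0.28 in CM. Besides Icam1 and Rel, Tnip1 was higher in every WT IR library than in every WT NIR library, with 55.6, 50.8 and 51.7 CPM against 47.3, 43.7 and 43.3 CPM, which made 3 of 38 members where 7.47% of all genes did so. Il18 was lower in every WT IR library, 1 of 38 where 6.63% of all genes were, with a log2 fold change of -0.83 ± 0.65. In CM 0 of 38 members separated IR from NIR, where 1.57% of all genes were higher and 0.986% lower without overlap.

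The difference of the 2 responses, CM minus WT, was fitted as an interaction. In edgeR 0 of 38 members passed it, 0 at an unadjusted p under 0.05, where 0% and 0.726% of all genes did, and DESeq2 and limma-voom called 0 as well. The smallest p-values among the members belonged to Cxcl10, Il18 and Icam1. The difference was 0.85 ± 0.90 for Il18, with a 95% interval of -1.14 to 2.84. Tnf had a difference of 0.35 ± 0.38, with an interval of -0.50 to 1.20. For Cxcl10 it was 3.93, and -0.96 when CM IR animal 1 was left out. The comparisons of CM with WT and of IR with NIR share their libraries and are not independent of each other.

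The other genes of the pathway were read from a list of 59 kinases, adaptors, receptors and regulators, of which 59 were tested and 0 passed in edgeR in any of the 5 contrasts. DESeq2 called 2 of 59 in CM over WT in NIR, Il18r1 and Nfkbid, where it called 6.32% of all genes. In IR it called 0 of 59, where it called 4.47% of all genes. Without CM NIR animal 2 edgeR called 5 in NIR, and without both libraries of CM animal 2 it called 12 in IR and 17 in NIR, against the shares of all genes given above. In CM over WT the fitted value was positive for 41 (69.5%) in IR and 45 (76.3%) in NIR, against 52.9% and 52.6% of all genes. The medians of the list were 0.23 and 0.26. For IR over NIR the fitted value was positive for 19 (32.2%) in CM and 35 (59.3%) in WT, against 49.6% and 47.4% of all genes. The medians of the list were -0.03 and 0.02. The smallest p in both genotype contrasts belonged to Nfkbid, which encodes the nuclear inhibitor IkBNS. Nfkbid had 23.3, 18.9 and 18.9 CPM in CM IR, against 14.7, 14.2 and 16.5 CPM in WT IR, and 22.7, 18.8 and 23.2 CPM in CM NIR, against 14.5, 15.7 and 16.0 CPM in WT NIR. All CM libraries were above all WT libraries, and the log2 fold change was 0.42 ± 0.13 in IR (edgeR adjusted p = 0.178) and 0.49 ± 0.13 in NIR (edgeR adjusted p = 0.0944). Il18r1, a chain of the receptor for IL-18, had 1.29, 3.19 and 1.20 CPM in CM NIR, against 4.15, 9.30 and 8.44 CPM in WT NIR, opposite in direction to the ligand. Its log2 fold change was -1.95 ± 0.57 in NIR (edgeR adjusted p = 0.130) and -0.59 ± 0.55 in IR, where CM animal 3 had 5.86 CPM and was above every WT library. Tirap, an adaptor of Tlr2 and Tlr4, had 0.60 ± 0.19 in NIR (edgeR adjusted p = 0.164). In IR, Nod1, a sensor of bacterial cell wall, had 0.53 ± 0.22 (edgeR adjusted p = 0.375). For IR over NIR in WT the smallest p was that of Tnfrsf1b, the TNF receptor TNFR2, at 0.37 ± 0.16 (unadjusted p = 0.0384, edgeR adjusted p = 1).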

How the data were processed

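RNA-seq of 12 libraries was read from 2 deposited gene tables, 1 of counts and 1 of RPKM. Per the labels' protocols, libraries were stranded and ribosome-depleted. Per the submitters' processing notes, bcl2fastq 2.18.0.12, TopHat2 and HTSeq 0.6.1p1 were used with build mm10. Their settings, strand use included, are not given here, so genes that overlap on opposite strands and close paralogs are uncertain. The deposited counts are whole reads per gene and were the input of each main test. In the RPKM table the authors had divided these by exon length and library size; it served for levels between genes and as alternatives. No column belonged to another sample.

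filterByExpr (at least 10 counts, at least 15 in total) kept 14599 genes, which were scaled with TMM and fitted with edgeR 4.0.16 in R 4.3.3 (glmQLFit and glmQLFTest), with 1 mean per group over all 12 libraries and Benjamini-Hochberg adjustment over all genes. SEs are those of this fit; DESeq2 1.42.0 and limma 3.58.1 were alternatives. The fit was tested on simulated counts drawn without an animal effect, so that test does not cover the pairing of the libraries.

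Groups come from the titles. IR and NIR libraries are paired by the animal number in the labels, and their deviations from the group means correlated at 0.79, 0.84 and 0.13 in CM animals 1, 2 and 3 and at 0.67, 0.50 and 0.41 in WT. The animal block is therefore given beside the IR comparisons. The main fit has no term for the animal, so its p-values treat the IR and NIR libraries of an animal as independent. In the animal block fit, the p-values for IR over NIR rest on the spread of the differences within animals. The members and lists were chosen with earlier results of these data known. Values in every library are given for members called with or without the block, the 3 with the smallest p of a contrast, the 3 with the highest RPKM, those that do not overlap between genotypes in both treatments, and those that moved 1 way in all 6 animals; others named were chosen after their values were seen. Promoters come from a RefSeq table of GRCm38.p6, in which 31 members matched; the windows were matched to the genes by symbol. A gene of the wider pathway list that the rule would name is withheld for evaluation and is not reported here.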

Additional observations from a re-analysis of the deposited data

How the results depend on the processing

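In the replicate block fit, which for IR over NIR pairs the libraries of an animal, the genes called were 0 in CM and 163 in WT, against 1 and 17 without the block, and 0 members were called in either. CM and WT animals share only a number (correlations of -0.37 to 0.53), and with that number as a block 416 genes (2.85%) and 3 members (Tnf, Cxcl2 and Rel) were called in IR and 854 genes (5.85%) and 2 members (Tnf and Cxcl2) in NIR; the block changed no other call of a member. Of the wider pathway list it called 1 gene in IR (Ticam1) and 3 in NIR (Ltbr, Nfkbid and Ticam1), against 0 without it.

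Without a block, genes called for CM over WT were 97 in IR and 237 in NIR. They were 652 and 922 in DESeq2 (members 3 and 2), 0 and 74 with the 2 compared groups alone, 207 and 143 without both libraries of CM animal 3, 4 and 32 without CM animal 1, 1003 and 2512 without CM animal 2 (members 7 and 12), and 2 and 2 without WT animal 1. In IR they were 156 in limma-voom, 162 with log2(RPKM + 1) and 14 with the library series as a term. For IR over NIR in WT they were 140 in DESeq2, 31 in limma-voom, 91 with the 2 groups alone, 40 with log2(RPKM + 0.1), 52 with log2(RPKM + 1) and 1 without WT animal 1. For IR over NIR in CM they were 18 in DESeq2, 0 with the 2 groups alone, 0 without CM animal 3 and 3 without CM animal 2. For the difference of responses 1 gene was called with log2(RPKM + 1), against 0.

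Leaving out 1 library at a time gave 3 to 271 genes for CM over WT in IR and 4 to 918 in NIR, 0 to 3 for IR over NIR in CM, 1 to 4 in WT and 0 to 0 for the difference; members called ran 0 to 1 in IR, 0 to 2 in NIR and 0 to 0 elsewhere. The members' median ran 0.09 to 0.68 for CM over WT in IR, 0.22 to 0.80 in NIR, -0.30 to 0.30 for IR over NIR in CM, -0.11 to 0.34 in WT, and -0.36 to 0.21 for the difference, so its sign was not stable for IR over NIR. With 1 library left out, IR over NIR in CM ran from -1.15 (without CM IR replicate 1) to 4.39 for Cxcl10, from -0.062 to 0.65 for Ccl3 and from -0.0091 to 0.39 for Rel, both lowest without CM NIR replicate 2; in WT Ccl3 ran from -0.31 (without WT IR replicate 1) to 1.91. The difference for Cxcl10 ran from -0.96 to 6.08. Without both libraries of CM animal 1 Cxcl10 had -0.52 for IR over NIR in CM and -0.33 for the difference. Each of these negative values is a turned sign. The causes were not tested. Libraries in which a member is under 1 CPM, such as 5 of the 6 WT libraries for Cxcl2, are limited by depth as well as by animals. The settings without a whole animal were added after the data were seen, apart from CM animal 3.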
